A study of Mus musculus with 8 samples.

Results

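The genes described here are 49 genes of neurons and their synapses, named by symbol: genes of the neuronal cytoskeleton, of transport along axons, of synaptic vesicles and the release machinery, of neural adhesion and of neuronal RNA binding. They were listed with earlier results of these data in view, and a gene was kept only where it had at least 10 counts over all 8 libraries. Which of those results led to the list is not recorded, so no count or direction below is independent support. The total count was used only to drop genes. Doublecortin, Dcx, with 1 count in all, was dropped, and 48 of the 55401 genes in the table were kept. Of the 48, the stathmin gene Stmn4 (11 counts), the granin gene Chgb (14) and the synapsin gene Syn2 (20) lay just inside that limit but had too few counts to be tested, which left 45 of the 17125 genes tested in the whole table. The synaptotagmin gene Syt1, with 54 counts, and Snap25, with 57, were the lowest of those tested.

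RNA was sequenced from the mouse line R1, which consists of embryonic stem cells (ESCs), in 4 groups of 2 libraries each. Control R1 ESCs (genotype WT) and Zfp462 knockout R1 ESCs, from stable knockout lines, were grown on gelatin in medium with serum and LIF (leukaemia inhibitory factor), which keeps ESCs undifferentiated. Control and knockout embryoid bodies (EBs) were the same kinds of cells after 3 days in Petri dishes as floating aggregates, in which ESCs begin to differentiate. Zfp462 encodes a zinc finger protein, and the study asked what its loss does to the self-renewal and differentiation of ESCs. How many knockout clones there were, and whether the replicates of a group were grown separately, was not stated in the labels. The p-values therefore speak of the spread between these samples alone, and that spread may be technical.

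Neurons carry long processes built on microtubules and on neurofilaments, and kinesin motors move vesicle precursors along those microtubules towards the synapse. At the presynaptic active zone, scaffold proteins hold vesicles beside calcium channels, and SNARE proteins with synaptotagmins fuse them with the membrane. Outside the nervous system many of these genes are held down by REST, a repressor that binds a DNA element called RE1 and recruits co-repressors and chromatin enzymes. ESCs are not neurons, and transcripts of neuronal genes in them are mostly of low level.

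The libraries held 12119763 to 16228426 counts. Zfp462 stood at 183.2 and 196.9 CPM (counts scaled to library size) in control ESCs, at 104.0 and 106.6 in knockout ESCs, at 153.5 and 130.3 in control EBs and at 102.0 and 102.5 in knockout EBs, so it was lower in every knockout library than in any control library but not absent; which exon was edited was not stated. Pou5f1, which marks pluripotent cells, stood at 490.3 and 473.7 CPM in control ESCs and at 345.7 and 278.8 in knockout ESCs. In EBs it stood at 426.2 and 439.0 CPM in control and at 385.8 and 370.7 in knockout libraries. The other ESC markers, Nanog, Zfp42, Esrrb, Klf4 and Tfcp2l1, were each lower in every EB library than in any ESC library. Nanog stood at 543.0 and 574.7 CPM in control ESCs and at 154.8 and 128.0 in control EBs. Fgf5, a marker of the epiblast, stood at 1.55 to 3.06 CPM in the ESC libraries and 31.0 to 64.3 CPM in the EB libraries. Of 6 neuron markers, the vesicular glutamate transporter Slc17a6 had at most 3 counts in a library, Gad2 at most 2, and Rbfox3 stood at 0.301 to 2.92 CPM. The other 3 were detected in every library, Slc17a7 at 1.89 to 6.04 CPM, Gad1 at 1.66 to 12.5 CPM and Neurod1 at 1.81 to 9.12 CPM. Of the neuroendocrine markers, Ins1, Ins2 and Dbh had 0 counts in every library and Slc18a1 stood at 0.799 to 7.35 CPM. A pair of libraries stood apart. In knockout ESCs, the difference between the replicates followed the GC content of the transcripts (Pearson r = 0.741 across 9680 genes, against -0.063 to 0.007 in the other groups). Knockout EB replicate 1 held adult liver RNA, with the albumin gene Alb at 1335 CPM against 0 in knockout EB replicate 2. Far lower liver levels were also seen in control EB replicate 2, with Alb at 14.04 CPM against 1.59 in control EB replicate 1. Counts over the listed neuronal genes as a whole are given with and without knockout ESC replicate 2 and knockout EB replicate 1. This covers knockout differentiation and the knockout at each stage, where the comparison uses the library. Counts for single roles and for the other gene lists came from the fit of all libraries. How those counts depend on these libraries was not shown. In bulk RNA, fewer cells of a type and less RNA per cell cannot be told apart.

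Levels differed widely among the 48 genes. Per length, as RPKM (counts scaled to library size and to gene length) averaged over all libraries, the stathmin gene Stmn2, whose product binds tubulin in growing neurites, had the highest level (35.1 RPKM). It was followed by Tubb3 (19.6), a neuronal beta-tubulin, by Ina (13.3), the intermediate filament alpha-internexin, by Dpysl3 (7.79), a growth cone protein, and by Vamp2 (6.36), the SNARE of synaptic vesicles. At the low end stood Syt1 (0.0588 RPKM), Stmn4 (0.0525), Chgb (0.0463) and Syn2 (0.0266). The summed level of the 48 genes was 892.7 and 908.4 CPM in control ESCs, 604.5 and 674.4 in knockout ESCs, 765.6 and 800.0 in control EBs and 566.2 and 583.9 in knockout EBs. The sums of knockout and control libraries did not overlap at either stage, and Stmn2 alone makes up a large part of each sum.

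**Figure D1:**
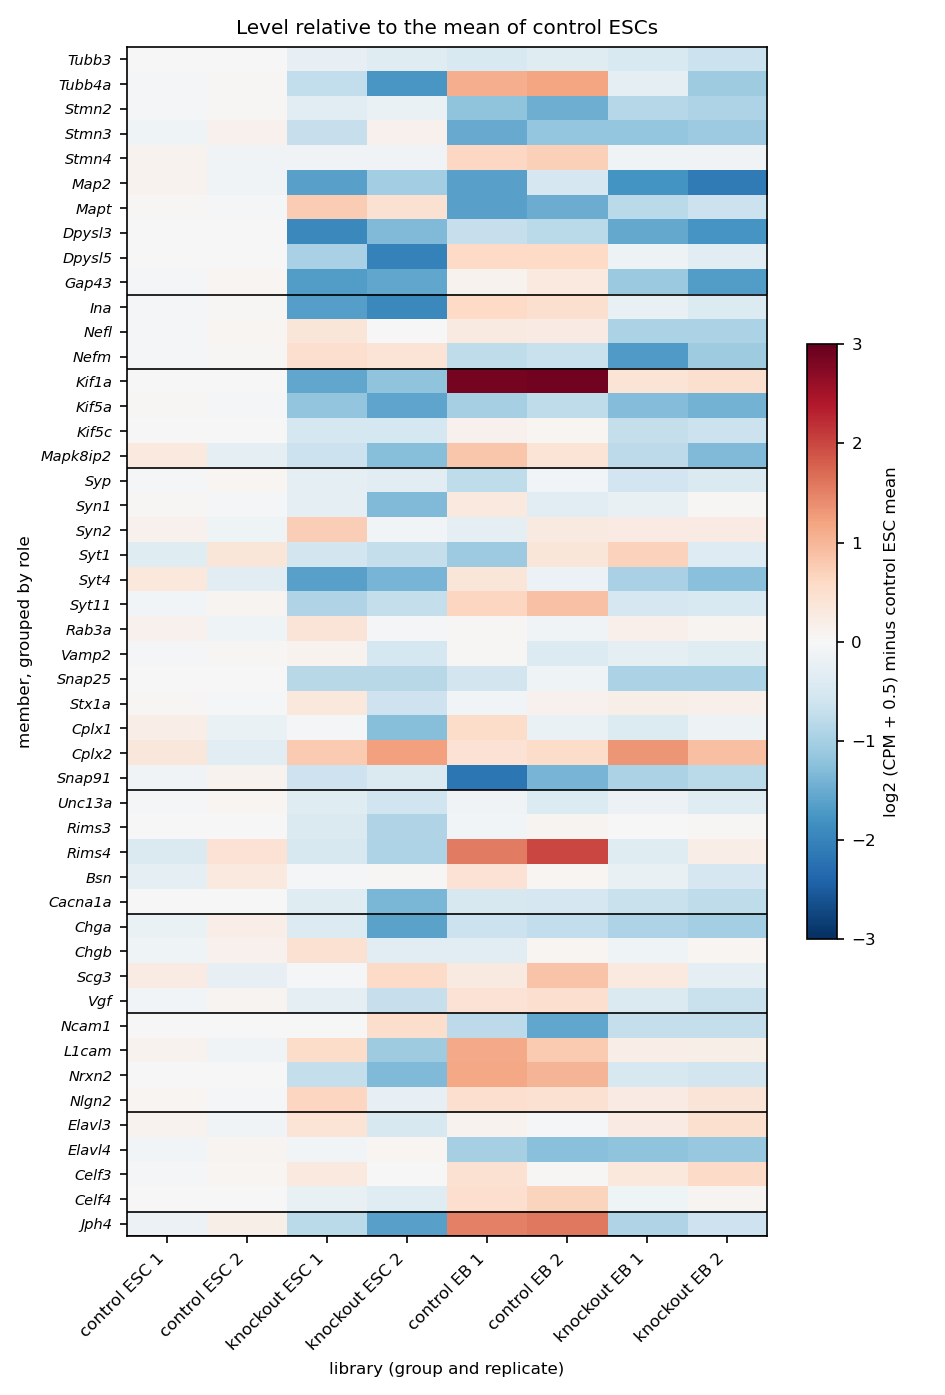
Heat map of the 48 genes kept (rows, grouped by role) in the 8 libraries (columns, group and replicate). Colour is log2(CPM + 0.5) minus the same for the mean of control ESCs, from -3 (blue) to 3 (red). Kif1a, Rims4 and Jph4 are redder in both control EB libraries than in any other library, and Dpysl3, Gap43 and Ina are blue in both knockout ESC libraries.

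Promoter sequence was searched for RE1, the element bound by REST, in every listed gene with a window, whatever its result. RefSeq promoter windows of 300 bases, 250 before to 50 after the start, were on hand for 31 of the 48 genes (64.6%), too few for a comparison of the set. The left arm of RE1 was searched as CAGCACC and the right arm as GGACAG, on both strands, with no spacing asked for, and the motifs do not overlap in sequence. CAGCACC was found in 6 of the 31 genes (19.4%, against 8.1% of 27025 genes) and GGACAG in 11 (35.5%, against 24.7%). Both were in the windows of 3 genes, Kif1a, Tubb3 and Unc13a, against 2.38% of all genes. A match to such short words is a description of the letters, not of a binding site. The 250 bases before the start are printed for 4 genes, from RefSeq on GRCm38.p6, 5′ to 3′ on the gene's strand, with matches on either strand in capitals. Kif1a (chr1:93101875-93102124, minus strand) is the kinesin gene with the highest level in control EBs among the 4 transport genes listed, and holds the reverse complement of CAGCACC from position -229. Jph4 (chr14:55116936-55117185, minus strand) was lower in knockout cells at both stages and holds no match. Ina (chr19:47014431-47014680, plus strand), also lower at both stages, holds GGACAG from -164. Syn1 (chrX:20920919-20921168, minus strand), the synapsin I gene, holds CAGCACC at -230 and at -176 and passed no test in any comparison.
Kif1a: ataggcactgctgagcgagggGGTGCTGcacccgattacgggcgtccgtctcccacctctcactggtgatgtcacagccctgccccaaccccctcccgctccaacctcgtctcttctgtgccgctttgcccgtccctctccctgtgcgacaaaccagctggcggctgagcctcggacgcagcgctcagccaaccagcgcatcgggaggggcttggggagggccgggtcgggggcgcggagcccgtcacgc
Jph4: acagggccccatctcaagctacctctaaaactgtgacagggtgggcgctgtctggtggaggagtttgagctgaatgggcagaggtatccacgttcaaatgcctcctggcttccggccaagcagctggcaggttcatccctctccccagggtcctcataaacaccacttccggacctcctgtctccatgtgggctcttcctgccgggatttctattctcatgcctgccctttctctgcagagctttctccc
Ina: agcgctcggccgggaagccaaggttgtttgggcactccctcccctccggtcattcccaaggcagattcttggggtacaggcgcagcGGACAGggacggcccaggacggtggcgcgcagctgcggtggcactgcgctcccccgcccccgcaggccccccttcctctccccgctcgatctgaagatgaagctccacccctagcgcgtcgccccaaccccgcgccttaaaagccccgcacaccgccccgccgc
Syn1: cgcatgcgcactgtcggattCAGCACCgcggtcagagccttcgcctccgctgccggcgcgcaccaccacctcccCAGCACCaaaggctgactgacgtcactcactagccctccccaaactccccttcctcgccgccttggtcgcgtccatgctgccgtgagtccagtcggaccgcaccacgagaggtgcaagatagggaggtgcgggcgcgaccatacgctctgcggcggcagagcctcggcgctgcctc

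In knockout ESCs 13 of the 45 tested genes were lower than in control ESCs and 0 were higher (28.9% lower, where 6.20% of all 17125 tested genes were lower and 8.30% higher; a call, here and throughout, is an adjusted p below 0.05 in the quasi-likelihood test of edgeR, with the Benjamini-Hochberg adjustment taken over the whole table). The lower genes were Map2, Dpysl3, Dpysl5, Gap43, Ina, Kif1a, Kif5a, Kif5c, Syt4, Syt11, Rims3, Nrxn2 and Jph4. The median log2 change of the 45 genes was -0.57, against -0.03 over all genes tested. The median difference between replicates over the 45 genes gave an SD per library of 0.0966, pooled over the 4 groups. That pooled SD understates the spread of the knockout ESCs, whose replicates differed more, as given next. The median transcript of the 45 genes had a GC content of 55.4%, against 50.1% for all tested genes, and knockout ESC replicate 2 lay below replicate 1 by a median of -0.27 (log2) over the 45 genes and -0.00106 over all genes. Without knockout ESC replicate 2 the count was 13 lower and 2 higher, Nlgn2 and Mapt, with a median of -0.38, where 10.2% of all genes tested were lower. After the trend of every library on GC content was taken out, it was 18 lower and the same 2 higher, with a median of -0.63, where 12.1% of all genes were lower. Without knockout ESC replicate 1 the count was 20 lower, beside 15.2% of all genes. Without either control ESC library it was 5 lower, beside 1.72% of all genes without replicate 1 and 1.48% without replicate 2.

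In knockout EBs 13 of the 45 genes were lower than in control EBs and 2 were higher (28.9% lower and 4.44% higher, where 2.04% of all tested genes were lower and 4.75% higher). Tubb4a, Dpysl3, Gap43, Ina, Nefl, Kif1a, Kif5c, Mapk8ip2, Syt11, Rims4, Nrxn2, Celf4 and Jph4 were lower, and Stmn2 and Mapt were higher. The median log2 change was -0.61, against 0.00 over all genes. Without knockout EB replicate 1, the library with liver RNA, 9 genes were lower and 0 higher, with a median of -0.51, where 0.33% of all genes were lower. The count of lower genes was 4 without control EB replicate 1 (0.219% of all genes), 7 without control EB replicate 2 (0.402%) and 8 without knockout EB replicate 2 (0.429%), each with 0 higher. With either library of the knockout ESCs left out it was 17, beside 7.69% of all genes without replicate 1 and 8.04% without replicate 2.

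The knockout comparisons at the 2 stages share no library, but both came from 1 fit whose estimate of the spread used all 8 libraries. Dpysl3, Gap43, Ina, Jph4, Kif1a, Kif5c, Nrxn2 and Syt11 were lower in both, that is 8 genes or 61.5% of the 13 at each stage. Across the 45 genes the log2 changes at the 2 stages had a Pearson r of 0.60, a description over genes that are not independent of one another. The overlap and r over all tested genes were not worked out, so neither is set against the whole table. The difference between the knockout effects in EBs and in ESCs passed its own test for 3 of the 45 genes: it was positive for Stmn2 and Ina, where 0.742% of all tested genes were positive, and negative for Nefl, where 0.642% were negative. For the other 42 genes a difference between the stages was not shown.

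**Figure D2:**
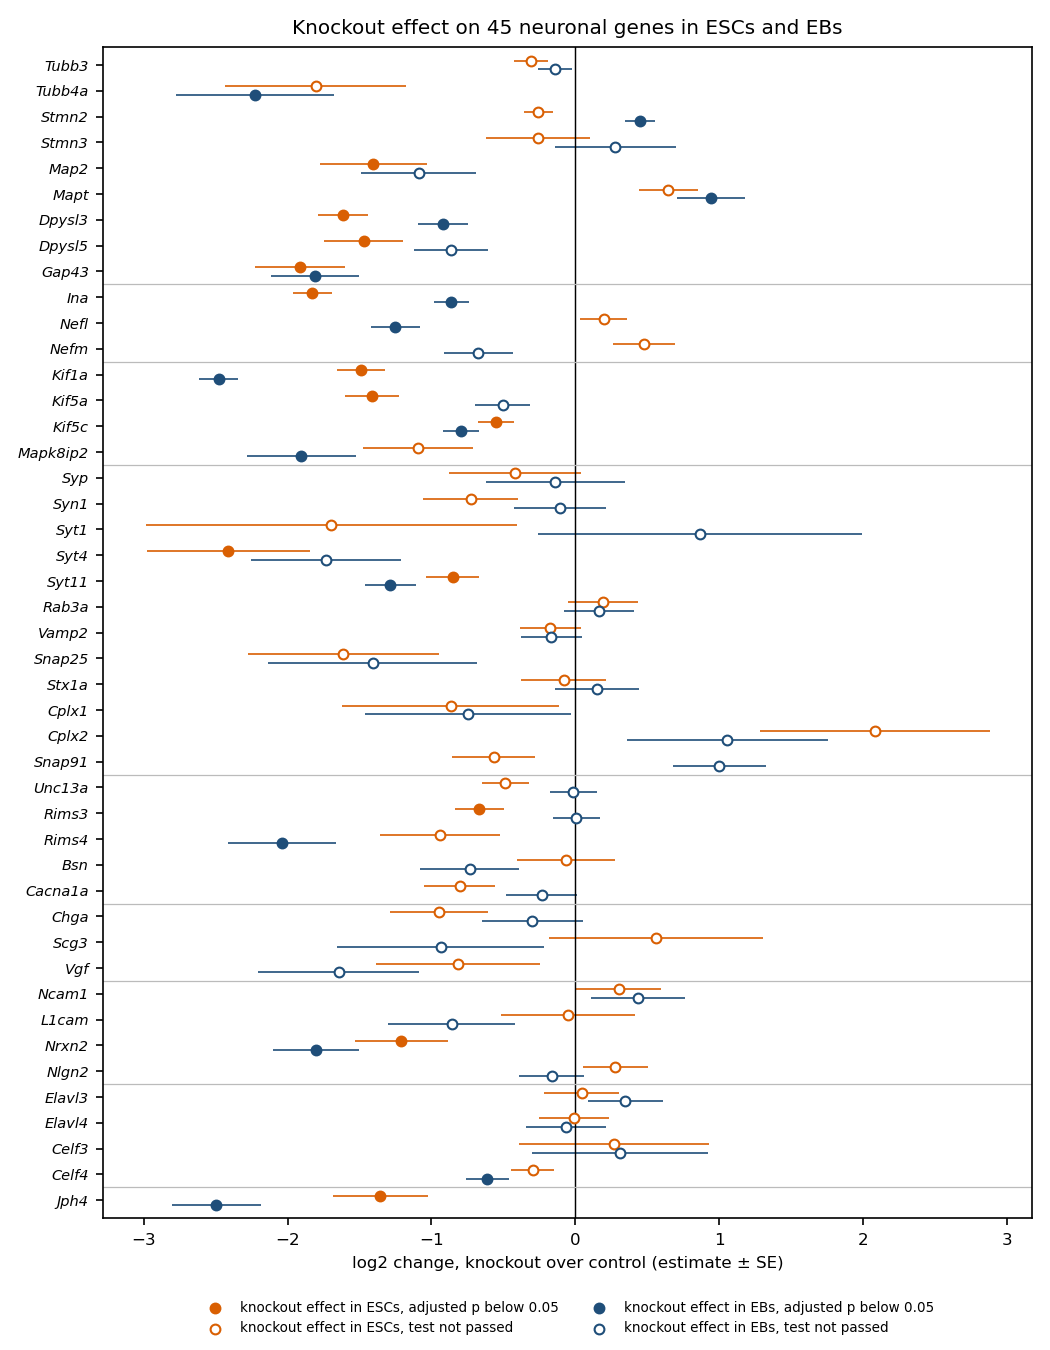
Log2 change of each of the 45 tested genes (rows, grouped by role), knockout over control, with its SE, in ESCs (orange) and in EBs (blue). Filled points passed the test at an adjusted p below 0.05 and open points did not. Most estimates lie left of 0 (35 of 45 in ESCs and 33 of 45 in EBs), with Kif1a and Jph4 near -2.5 in EBs, and Stmn2 and Mapt are the filled points right of 0.

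From ESCs to EBs in control cells, 7 of the 45 genes rose and 10 fell (15.6% and 22.2%, where 8.60% of all tested genes rose and 9.63% fell). Ina, Kif1a, Syt11, Rims4, Nrxn2, Celf4 and Jph4 rose, and Tubb3, Stmn2, Stmn3, Mapt, Dpysl3, Nefm, Kif5a, Snap91, Ncam1 and Elavl4 fell. In knockout cells 4 rose, Dpysl5, Ina, Kif1a and Rims3, and 6 fell, Stmn2, Mapt, Nefl, Nefm, Ncam1 and Elavl4 (8.89% and 13.3%, where 8.23% of all tested genes rose and 7.11% fell). The median log2 change of the 45 genes was 0.03 in control and 0.05 in knockout cells, against -0.01 and 0.00 over all genes. The knockout median turned with the library left out: it was -0.19 without knockout ESC replicate 2, 0.32 without knockout ESC replicate 1, -0.08 without knockout EB replicate 1, -0.22 with both of the libraries that stood apart left out and -0.06 with the GC trend removed. These comparisons share no library but do share the estimate of the spread. The risers of both were Ina and Kif1a (28.6% of the control risers and 50% of the knockout risers). Elavl4, Mapt, Ncam1, Nefm and Stmn2 fell in both (50% and 83.3%). Pearson's r between the changes was 0.62 across the 45 genes. Neither this overlap nor r was worked out over all tested genes. In control cells the counts were 1 up and 4 down without control ESC replicate 1, where 2.29% of all genes rose and 3.23% fell, and 3 and 3 without control ESC replicate 2 (1.91% and 2.61%). They were 4 and 5 without control EB replicate 1 (3.05% and 3.53%) and 1 and 5 without control EB replicate 2 (2.84% and 3.99%). They were 11 and 13 without either knockout ESC library, where about 15% of all genes rose and 15% fell. In knockout cells 3 rose and 5 fell without knockout ESC replicate 2 (8.73% and 6.44% of all genes). When knockout ESC replicate 1 was left out, 13 rose and 7 fell (17.6% and 12.3%), and 2 rose and 4 fell without knockout EB replicate 1 (2.76% and 1.87%). Fewer of the listed genes also rose in knockout cells without either control ESC library, without control EB replicate 2 or without knockout EB replicate 2. In each of these fits a smaller share of all genes rose as well.

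**Figure D3:**
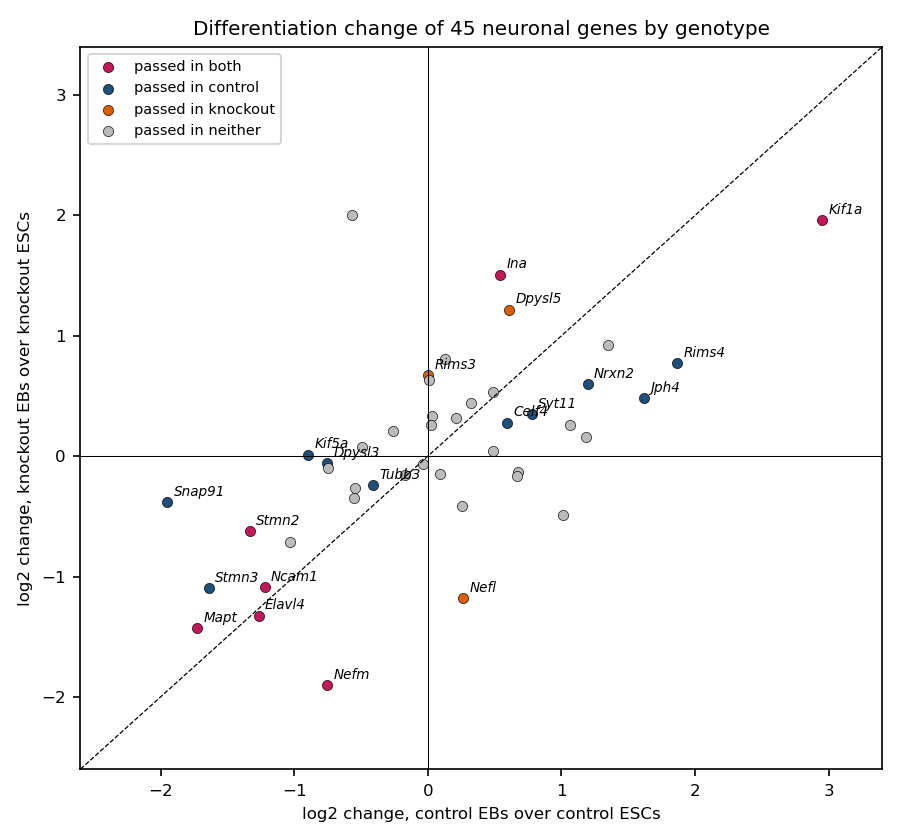
Log2 change from ESCs to EBs of the 45 tested genes in control cells (x axis) and in knockout cells (y axis), 1 point per gene, coloured by whether the change passed the test in both, in control, in knockout or in neither. The dashed line marks equal change. Kif1a lies farthest right (2.95 in control and 1.96 in knockout), Rims4, Jph4 and Nrxn2 lie below the line, and Ina and Dpysl5 lie above it.

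The 4 genes of axonal transport had the lowest medians of the roles with more than 1 tested gene in EBs (-1.35), and each had an estimate below 0 at both stages. Kif1a encodes the kinesin that carries synaptic vesicle precursors. It stood at 10.3 and 10.3 CPM in control ESCs, at 3.14 and 4.15 in knockout ESCs, at 78.8 and 80.0 in control EBs and at 13.9 and 14.6 in knockout EBs. The groups did not overlap, and both control EB libraries were far above all others. The log2 change in the knockout was -1.49 ± 0.17 (estimate ± SE) in ESCs (edgeR adjusted p = 0.000257) and -2.48 ± 0.14 in EBs (edgeR adjusted p = 2.71e-05). Kif1a rose from ESCs to EBs by 2.95 ± 0.14 in control (edgeR adjusted p = 1.11e-06) and by 1.96 ± 0.16 in knockout cells (edgeR adjusted p = 5.28e-05), and the difference between these, -0.99 ± 0.22, missed the threshold (edgeR adjusted p = 0.0622). All 4 of the Kif1a calls held without each library of their own groups.

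Kif5c and Kif5a encode heavy chains of conventional kinesin. Kif5c stood at 27.8 and 27.9 CPM in control ESCs against 19.0 and 19.0 in knockout ESCs, and at 30.4 and 29.0 in control EBs against 16.7 and 17.5 in knockout EBs. It was lower in the knockout at both stages, by -0.55 ± 0.12 in ESCs (edgeR adjusted p = 0.0147) and -0.80 ± 0.13 in EBs (edgeR adjusted p = 0.00462), with the libraries of a group close together. Kif5a stood at 27.4 and 26.1 CPM in control ESCs, 11.5 and 8.52 in knockout ESCs, 13.2 and 15.5 in control EBs and 10.5 and 9.66 in knockout EBs. Control ESCs were the high group: the gene was lower in knockout ESCs (-1.41 ± 0.19, edgeR adjusted p = 0.00068) and fell in control differentiation (-0.90 ± 0.18, edgeR adjusted p = 0.00741), while the change in knockout EBs did not pass (-0.51 ± 0.19, edgeR adjusted p = 0.149). Mapk8ip2, a JNK scaffold that binds kinesin, stood at 8.16 and 6.04 CPM in control EBs and at 2.34 and 1.45 in knockout EBs (-1.91 ± 0.38, edgeR adjusted p = 0.0151). The Kif5a call in ESCs held without each ESC library, and its fall in control differentiation was lost without either control ESC library or control EB replicate 1 (adjusted p up to 0.0848). The Kif5c call in ESCs was lost without either control library (adjusted p up to 0.123) and that in EBs without control EB replicate 1 or knockout EB replicate 1 (up to 0.0746); that of Mapk8ip2 was lost without either control EB library or knockout EB replicate 2 (up to 0.171).

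**Figure D4:**
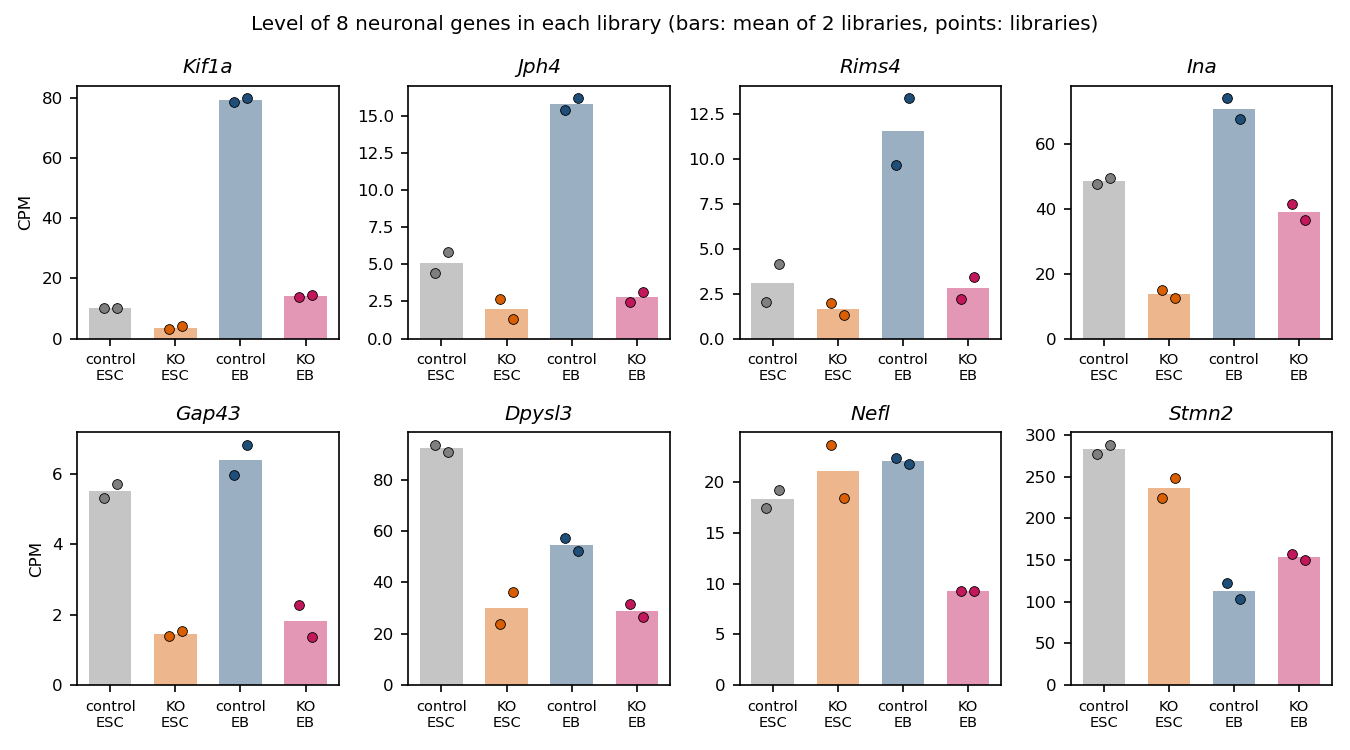
CPM of 8 genes in the 4 groups. Bars are the means of 2 libraries and points are the libraries, on an axis from 0 that differs between panels. Kif1a, Jph4 and Rims4 are high in control EBs alone among the 4 groups, Ina, Gap43 and Dpysl3 are lower in the knockout at both stages, Nefl is low in knockout EBs, and Stmn2 is higher in knockout than in control EBs and highest in control ESCs.

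Among the 9 tested genes of microtubules and the growth cone, 4 were lower in knockout ESCs and 0 higher (44.4% lower, beside 6.20% of all genes). In knockout EBs 3 were lower and 2 higher (33.3% and 22.2%, beside 2.04% and 4.75%). Gap43, a membrane phosphoprotein of growing axons, stood at 5.29 and 5.71 CPM in control ESCs, at 1.39 and 1.53 in knockout ESCs, at 5.97 and 6.82 in control EBs and at 2.26 and 1.37 in knockout EBs. Both knockout groups lay below both control groups, with changes of -1.91 ± 0.31 in ESCs (edgeR adjusted p = 0.00243) and -1.81 ± 0.30 in EBs (edgeR adjusted p = 0.00636). Dpysl3 and Dpysl5 encode collapsin response mediator proteins, which pass guidance signals to the cytoskeleton. Dpysl3 stood at 93.6 and 90.8 CPM in control ESCs, 23.9 and 36.4 in knockout ESCs, 57.2 and 52.1 in control EBs and 31.4 and 26.5 in knockout EBs. Its level was highest in control ESCs and lowest in the knockout groups, which overlapped with each other. Its changes were -1.61 ± 0.17 in knockout ESCs (edgeR adjusted p = 0.000206), -0.92 ± 0.17 in knockout EBs (edgeR adjusted p = 0.0115) and -0.75 ± 0.17 from control ESCs to control EBs (edgeR adjusted p = 0.0117). Dpysl5 stood at 19.7 and 19.5 CPM in control ESCs, 9.70 and 4.44 in knockout ESCs, 30.1 and 29.8 in control EBs and 17.5 and 15.5 in knockout EBs. It was lower in knockout ESCs (-1.47 ± 0.27, edgeR adjusted p = 0.00519) but did not pass in knockout EBs (-0.86 ± 0.25, edgeR adjusted p = 0.0728), and the 2 knockout ESC libraries were far apart. In knockout differentiation it rose (1.22 ± 0.28, edgeR adjusted p = 0.0155), a call that did not hold without knockout EB replicate 1 (0.0861).

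Stmn2 and Mapt went the other way in EBs. Stmn2 stood at 277.4 and 288.7 CPM in control ESCs, 225.1 and 248.3 in knockout ESCs, 122.3 and 102.7 in control EBs and 157.2 and 149.7 in knockout EBs. It fell in differentiation in both genotypes, by -1.33 ± 0.10 in control (edgeR adjusted p = 1.86e-05) and -0.62 ± 0.10 in knockout cells (edgeR adjusted p = 0.00322), and was higher in knockout than in control EBs (0.45 ± 0.10, edgeR adjusted p = 0.0295). Mapt, which encodes the microtubule-binding protein tau, stood at 8.79 and 8.42 CPM in control ESCs, 14.9 and 12.1 in knockout ESCs, 2.45 and 2.75 in control EBs and 4.67 and 5.33 in knockout EBs. Knockout libraries lay above control libraries at both stages; the difference passed in EBs (0.94 ± 0.24, edgeR adjusted p = 0.0414) but not in ESCs (0.65 ± 0.21, edgeR adjusted p = 0.0641). Mapt also fell in differentiation, by -1.73 ± 0.23 in control and -1.43 ± 0.22 in knockout cells (edgeR adjusted p = 0.000717 and 0.00197). Map2, the dendritic counterpart of tau, stood at 13.6 and 11.7 CPM in control ESCs and at 3.72 and 5.82 in knockout ESCs (-1.40 ± 0.37, edgeR adjusted p = 0.0296), and its EB libraries ranged from 2.51 to 8.78 CPM.

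The tubulin genes differed from each other. Tubb3 lay between 28.8 and 45.4 CPM in all 8 libraries and fell from control ESCs to control EBs (-0.41 ± 0.12, edgeR adjusted p = 0.0367), with no other call. Tubb4a stood at 4.11 and 4.47 CPM in control EBs and at 1.28 and 0.533 in knockout EBs (-2.23 ± 0.55, edgeR adjusted p = 0.0374). Stmn3, a further stathmin, fell in control differentiation from 3.75 and 4.61 CPM to 1.13 and 1.57 (-1.64 ± 0.39, edgeR adjusted p = 0.0169). Stmn4 had 5 counts in each control EB library, 1 count in all of the control ESC libraries and 0 in the 4 knockout libraries. Its level in control EBs (0.349 CPM) was 3.11-fold a floor of 3 counts over the knockout EB group (0.112 CPM). The counting error of the control EB libraries was left out, so that ratio is not a lower bound on the change. Stmn4, with 11 counts in all, was kept only through its counts in control EBs. A lower level in the knockout was thus built into the choice, and the difference was not tested. Of the calls in ESCs, those of Dpysl3 and Gap43 held without each ESC library. That of Dpysl5 was lost without either control ESC library (adjusted p up to 0.0671) and that of Map2 without those or knockout ESC replicate 1 (up to 0.198). In EBs the calls of Stmn2, Mapt and Tubb4a did not hold when any 1 of the 4 EB libraries was left out (adjusted p 0.0727 to 0.245). That of Mapt was also lost with DESeq2 (adjusted p = 0.0669), and that of Tubb4a with a filter at a mean of 1 CPM. Those of Dpysl3 and Gap43 were lost without either control EB library or knockout EB replicate 2 (up to 0.161 and 0.0617). The differentiation calls of Stmn2 and Mapt held without each library of their own groups in both genotypes, and those of Tubb3, Stmn3 and Dpysl3 in control cells were lost without any 1 of the 4 control libraries (up to 0.2), and that of Tubb3 also with DESeq2.

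The 3 neurofilament genes had 3 different patterns. Ina stood at 47.7 and 49.6 CPM in control ESCs, 15.0 and 12.4 in knockout ESCs, 74.1 and 67.5 in control EBs and 41.4 and 36.6 in knockout EBs, and no groups overlapped. It was lower in the knockout by -1.83 ± 0.13 in ESCs (edgeR adjusted p = 1.84e-05) and -0.86 ± 0.12 in EBs (edgeR adjusted p = 0.00277). It rose in differentiation by 0.54 ± 0.12 in control and 1.51 ± 0.13 in knockout cells (edgeR adjusted p = 0.013 and 7.62e-05). Nefl, the light neurofilament chain, stood at 17.4 and 19.2 CPM in control ESCs, 23.7 and 18.4 in knockout ESCs, 22.3 and 21.8 in control EBs and 9.26 and 9.28 in knockout EBs. Knockout EBs were the low group. Nefl was lower there than in control EBs (-1.25 ± 0.17, edgeR adjusted p = 0.00192) and than in knockout ESCs (-1.18 ± 0.17, edgeR adjusted p = 0.00151), while the ESC groups overlapped. Nefm, the medium chain, stood at 13.0 and 13.8 CPM in control ESCs, 19.3 and 18.0 in knockout ESCs, 7.63 and 8.23 in control EBs and 3.77 and 6.16 in knockout EBs. It fell in differentiation by -0.75 ± 0.22 in control (edgeR adjusted p = 0.0412) and -1.91 ± 0.23 in knockout cells (edgeR adjusted p = 0.000517), and neither knockout effect passed. Exons of Ina, Nefl and Nefm lie under exons of the opposite strand for 14.1%, 32.8% and 19.2% of their bases. Nefl (chromosome 14, 68083863 to 68089095, plus strand) lies within the span of Nefm (68082590 to 68124846, minus strand). These genes may thus be each other's partner, and their values may not be independent. The strand setting of the counting was not given in the sources used here, so reads of a partner on the other strand cannot be told apart from those of Ina, Nefl or Nefm. The ESC call of Ina and the EB call of Nefl held without each library of their own groups, and the EB call of Ina did not hold without control EB replicate 1 (adjusted p = 0.064). The rise of Ina and the fall of Nefm in control cells were lost without any 1 of the 4 control libraries (up to 0.13 and 0.229), while the knockout differentiation calls of all 3 genes held without each knockout library.

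Of the 12 tested genes of synaptic vesicles and SNARE complexes, 2 were lower in knockout ESCs, 1 in knockout EBs and 0 were higher at either stage. The shares lower were 16.7% and 8.33%, beside 6.20% and 2.04% of all genes, and rest on 2 genes and 1 gene. Both genes that fell in the knockout were synaptotagmins. Syt11, a synaptotagmin that does not sense calcium, stood at 11.97 and 13.3 CPM in control ESCs, 6.56 and 7.42 in knockout ESCs, 20.0 and 23.5 in control EBs and 8.81 and 8.98 in knockout EBs. It was lower by -0.85 ± 0.18 in ESCs (edgeR adjusted p = 0.0112) and -1.28 ± 0.18 in EBs (edgeR adjusted p = 0.00218), and rose by 0.78 ± 0.17 in control differentiation (edgeR adjusted p = 0.0121). Syt4, at 2.52 and 1.47 CPM in control and 0.292 and 0.437 in knockout ESCs, was lower there (-2.41 ± 0.57, edgeR adjusted p = 0.0171), and 14.5% of its exon bases lie under an exon of the other strand. Snap91, a clathrin adaptor of synaptic vesicles, fell in control differentiation from 7.90 and 9.34 to 1.53 and 2.98 CPM (-1.95 ± 0.31, edgeR adjusted p = 0.00219). In knockout cells it stood at 5.40 and 6.26 CPM in ESCs and 4.22 and 4.72 in EBs, with no call, and the difference between the knockout effects at the 2 stages was not shown (1.57 ± 0.43, edgeR adjusted p = 0.139).

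The core of the release machinery passed no test in any comparison. Vamp2 stood between 18.7 and 29.5 CPM in all 8 libraries, and its changes lay from -0.17 to -0.16 with an SE of 0.21 in the 4 pairwise comparisons. Stx1a, the plasma membrane SNARE, ranged from 4.51 to 9.04 CPM, and Rab3a, the vesicle GTPase, from 5.53 to 8.17 CPM. Syn1 stood at 14.1 and 13.5 CPM in control ESCs, 11.4 and 5.24 in knockout ESCs, 16.9 and 10.7 in control EBs and 11.8 and 14.1 in knockout EBs; its promoter holds the left arm of RE1 at both places shown above. Its knockout change was -0.73 ± 0.33 in ESCs (edgeR adjusted p = 0.178) and -0.10 ± 0.32 in EBs. Syp, Snap25, Syt1, Cplx1 and Cplx2 stayed below 2 CPM in every library, and the SEs of their changes ran from 0.46 to 1.29 on the log2 scale, so that at this depth only large changes could have been detected. Without either control ESC library the ESC calls of Syt11 and Syt4 were lost (adjusted p up to 0.118 and 0.153). The EB call of Syt11 and the fall of Snap91 held without each library of their own groups. The rise of Syt11 was lost without either control ESC library or control EB replicate 2 (up to 0.117).

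Among the 5 genes of the active zone and its calcium channel, all had estimates below 0 in knockout ESCs, where 1 passed, and 1 passed in knockout EBs. Each is 20.0% of the 5, beside 6.20% of all genes lower in ESCs and 2.04% in EBs. The genes that passed were both members of the RIM family, which organise release sites. Rims3 stood at 23.9 and 23.2 CPM in control ESCs, 17.2 and 12.5 in knockout ESCs, 22.3 and 24.9 in control EBs and 23.4 and 24.04 in knockout EBs. Knockout ESCs were the low group (-0.67 ± 0.17, edgeR adjusted p = 0.024), and in EBs the genotypes overlapped (0.01 ± 0.16, edgeR adjusted p = 0.988). From knockout ESCs to knockout EBs it rose (0.68 ± 0.17, edgeR adjusted p = 0.0236), which did not hold without knockout ESC replicate 2 or either knockout EB library (up to 0.125). Rims4 stood at 2.04 and 4.18 CPM in control ESCs, 1.97 and 1.31 in knockout ESCs, 9.68 and 13.4 in control EBs and 2.18 and 3.42 in knockout EBs. It rose in control differentiation (1.87 ± 0.37, edgeR adjusted p = 0.00657) and was lower in knockout than in control EBs (-2.04 ± 0.38, edgeR adjusted p = 0.01). Cacna1a, the pore subunit of the P/Q-type calcium channel and the gene of this role with the highest CPM, stood at 39.5 and 40.7 CPM in control ESCs and 30.8 and 15.1 in knockout ESCs (-0.80 ± 0.25, edgeR adjusted p = 0.0539). Its EB libraries lay between 23.4 and 28.8 CPM. Unc13a, the priming factor Munc13-1, and the scaffold gene Bsn passed no test. The ESC call of Rims3 was lost without either control ESC library (adjusted p up to 0.16). That of Rims4 in EBs was lost without either control EB library or knockout EB replicate 1 (up to 0.11), and its rise without control ESC replicate 1 or control EB replicate 2 (up to 0.0876).

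The dense-core granule genes gave no call. Chga, the granin chromogranin A and the most abundant of the 4, stood at 11.5 and 15.2 CPM in control ESCs, 9.84 and 4.003 in knockout ESCs, 8.22 and 7.69 in control EBs and 6.70 and 6.24 in knockout EBs. Its knockout changes were -0.95 ± 0.34 in ESCs (edgeR adjusted p = 0.0949) and -0.30 ± 0.35 in EBs (edgeR adjusted p = 0.684). Vgf and Scg3 lay between 0.304 and 1.49 CPM. Vgf had both knockout EB libraries (0.527 and 0.381 CPM) below both control EB libraries (1.39 and 1.49), at an edgeR adjusted p of 0.115.

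Of the 4 neural adhesion genes, Nrxn2 was lower in the knockout at both stages (25.0%, beside 6.20% of all genes in ESCs and 2.04% in EBs). It encodes a neurexin, a presynaptic receptor that binds neuroligins across the synaptic cleft. Nrxn2 stood at 3.42 and 3.50 CPM in control ESCs, 1.90 and 1.09 in knockout ESCs, 8.35 and 7.53 in control EBs and 2.34 and 2.21 in knockout EBs. The changes were -1.21 ± 0.32 in ESCs (edgeR adjusted p = 0.0301) and -1.80 ± 0.30 in EBs (edgeR adjusted p = 0.00567), and the gene rose by 1.20 ± 0.28 in control differentiation (edgeR adjusted p = 0.016). The neuroligin gene Nlgn2 stood at 29.5 and 27.0 CPM in control ESCs, 44.5 and 23.9 in knockout ESCs, 40.3 and 38.7 in control EBs and 33.8 and 36.8 in knockout EBs. The knockout ESC libraries of Nlgn2 enclose the control ones, so its direction depends on the library: the change was 0.28 ± 0.23 with both (edgeR adjusted p = 0.478), 0.66 ± 0.10 without knockout ESC replicate 2 (edgeR adjusted p = 0.0018) and -0.25 without knockout ESC replicate 1. Ncam1, an immunoglobulin adhesion molecule, fell in differentiation in both genotypes, by -1.22 ± 0.32 in control (edgeR adjusted p = 0.024) and -1.09 ± 0.31 in knockout cells (edgeR adjusted p = 0.0396). L1cam ranged from 1.53 to 8.82 CPM and passed no test. The ESC call of Nrxn2 was lost without either control ESC library or knockout ESC replicate 2 (adjusted p up to 0.177), with DESeq2 and in a fit of only the groups compared, its EB call without control EB replicate 1 (0.082), and its rise without any 1 of the 4 control libraries (up to 0.143). The Ncam1 calls were lost without either control ESC library or control EB replicate 2 in control cells (up to 0.147), and without knockout ESC replicate 2 or either knockout EB library in knockout cells (up to 0.18).

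The 4 neuronal RNA-binding genes showed 1 knockout call, in EBs (25.0% lower, beside 2.04% of all genes). Celf4, a splicing and translation regulator and the most abundant of the 4 by CPM, stood at 18.3 and 18.1 CPM in control ESCs, 15.5 and 14.1 in knockout ESCs, 25.9 and 29.1 in control EBs and 16.7 and 19.3 in knockout EBs. It rose in control differentiation (0.59 ± 0.15, edgeR adjusted p = 0.0196) and was lower in knockout than in control EBs (-0.61 ± 0.15, edgeR adjusted p = 0.035). Elavl4, which encodes the Hu protein HuD, fell in differentiation by near-equal amounts in both genotypes, -1.27 ± 0.26 in control and -1.32 ± 0.26 in knockout cells (edgeR adjusted p = 0.00771 and 0.00823). Its libraries lay between 5.70 and 6.51 CPM in ESCs and between 2.27 and 2.79 CPM in EBs, with genotypes overlapping at both stages. Elavl3 (9.61 to 19.0 CPM) and Celf3 (0.407 to 0.913 CPM) passed no test. The calls of Celf4 were lost without any 1 library of their own groups (adjusted p 0.0605 to 0.332). Those of Elavl4 were lost without control ESC replicate 2 or control EB replicate 2 in control cells (up to 0.094) and without either knockout EB library in knockout cells (up to 0.0839).

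Jph4 encodes a junctophilin, which ties the plasma membrane to the endoplasmic reticulum in neurons. It stood at 4.40 and 5.84 CPM in control ESCs, 2.70 and 1.31 in knockout ESCs, 15.5 and 16.2 in control EBs and 2.49 and 3.12 in knockout EBs. Like Kif1a and Rims4 it was highest in control EBs, and the knockout groups overlapped with each other. The changes were -1.36 ± 0.33 in knockout ESCs (edgeR adjusted p = 0.0205), -2.50 ± 0.31 in knockout EBs (edgeR adjusted p = 0.00115) and 1.62 ± 0.29 in control differentiation (edgeR adjusted p = 0.00399). In knockout differentiation its change was 0.48 ± 0.35 (edgeR adjusted p = 0.383), and the difference between the knockout effects at the 2 stages was not shown (-1.14 ± 0.45, edgeR adjusted p = 0.329). The EB call held without each EB library. The ESC call was lost without either control ESC library or knockout ESC replicate 2 (adjusted p up to 0.207), and the rise without control ESC replicate 1 or control EB replicate 2 (up to 0.0775).

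Other genes of the neuronal programme were taken from a separate list of 86 neuronal and synaptic genes, of which 70 could be tested. In knockout ESCs 16 were lower and 6 higher (22.9% and 8.57%, beside 6.20% and 8.30% of all genes), with a median of -0.37. In knockout EBs 11 were lower and 2 higher (15.7% and 2.86%, beside 2.04% and 4.75%), with a median of -0.23. Lower at both stages were Map1b, a microtubule protein of growing axons (-0.96 ± 0.10 in ESCs, edgeR adjusted p = 0.000165, and -0.47 ± 0.10 in EBs, edgeR adjusted p = 0.0188), Crmp1, a relative of Dpysl3 (-1.26 ± 0.15 and -0.86 ± 0.14), and Uchl1, a neuronal deubiquitinase (-0.94 ± 0.12 and -0.70 ± 0.12). Gad1, which makes the transmitter GABA, was lower in knockout ESCs (-1.87 ± 0.24, edgeR adjusted p = 0.000569) and fell in control differentiation (-2.50 ± 0.25, edgeR adjusted p = 0.000102). In differentiation 6 of the 70 rose and 10 fell in control cells (8.57% and 14.3%, beside 8.60% and 9.63% of all genes), so that the share that rose was that of all genes. In knockout cells 8 rose and 9 fell (11.4% and 12.9%, beside 8.23% and 7.11%).

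Neurogenic transcription factors were mostly too low to test: 11 of 31 were tested. Neurod1, which drives neuronal differentiation, stood at 9.12 and 8.97 CPM in control ESCs, 1.82 and 3.35 in knockout ESCs, 6.43 and 6.67 in control EBs and 1.81 and 2.36 in knockout EBs. It was the 1 factor lower in the knockout, at both stages (-1.80 ± 0.30 and -1.65 ± 0.31, edgeR adjusted p = 0.00275 and 0.0113). That is 9.09% of the 11 tested, beside 6.20% of all genes in ESCs and 2.04% in EBs. Of 18 tested neural progenitor genes, 7 were lower in knockout ESCs and 4 in knockout EBs (38.9% and 22.2%, beside 6.20% and 2.04% of all genes). The 7 include Sox2, at 568.0 and 616.8 CPM in control ESCs, and Pou3f1 and Otx2, which are also markers of the epiblast. Pou3f1 is among the 4 in EBs too. The counts of this list therefore do not speak of neural progenitors alone. None of the 18 was higher, where 8.30% and 4.75% of all genes were. Zic2 and Sox11, transcription factors of the early neural plate, were lower at both stages, Zic2 by -1.60 ± 0.21 and -1.10 ± 0.16 and Sox11 by -1.49 ± 0.20 and -1.42 ± 0.18 (ESCs, then EBs). In differentiation 8 of the 18 rose and 3 fell in control cells (44.4% and 16.7%, beside 8.60% and 9.63% of all genes). In knockout cells 8 rose and 2 fell (44.4% and 11.1%, beside 8.23% and 7.11%).

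A list of REST and its co-repressors was also described. All 18 genes of that list were tested. In knockout ESCs 5 were lower and 1 higher (27.8% and 5.56%, beside 6.20% and 8.30% of all genes). In knockout EBs 1 was lower (5.56%, beside 2.04% of all genes). Rest itself was lower in the knockout, by -0.82 ± 0.08 in ESCs (edgeR adjusted p = 0.000165) and -0.39 ± 0.08 in EBs (edgeR adjusted p = 0.0219), and fell in control differentiation by -0.46 ± 0.08 (edgeR adjusted p = 0.00448). Kdm1a, the histone demethylase of the CoREST complex, was lower in knockout ESCs (-0.53 ± 0.08, edgeR adjusted p = 0.00182), Rcor2 was lower (-0.75 ± 0.18, edgeR adjusted p = 0.0208) and Rcor1 was higher (0.42 ± 0.11, edgeR adjusted p = 0.0286). Rest and the neuronal genes called in knockout ESCs thus moved in the same direction, and the part of Rest in those changes was not tested.

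Genes of other cell types were also called by genotype. Beside the counts here, 8.30% of all tested genes were higher and 6.20% lower in knockout ESCs, and 4.75% and 2.04% in knockout EBs. Of 16 extraembryonic endoderm genes, 15 were higher in the knockout at each stage, and their summed level was 4858 and 5061 CPM in control ESCs against 16440 and 19410 CPM in knockout ESCs, and 5514 and 5878 CPM in control EBs against 10450 and 11570 CPM in knockout EBs. The part of this in the neuronal results was not tested. Among 12 tested glial genes 1 was higher and 1 lower at each stage, and the summed level of the 16 listed was 123.2 to 126.4 CPM in control and 203.3 to 215.7 CPM in knockout ESCs. Of the 4 glial markers, Aqp4 had at most 1 count in a library, while Gfap reached 19 counts, Sox10 24 and Mbp 50. Of 6 tested neuroendocrine genes 1 was higher and 1 lower in knockout ESCs, and 0 were called in knockout EBs. Of 4 tested fibroblast genes 1 was higher in knockout ESCs and 0 were called in knockout EBs. Of 12 ESC and epiblast markers 3 were higher and 5 lower in knockout ESCs, and 5 higher and 2 lower in knockout EBs. The 26 adult liver genes summed to 2991 CPM in knockout EB replicate 1 and to 235.4 CPM in knockout EB replicate 2. The range in the other 6 libraries was 93.5 to 196.2 CPM, and 4 of 17 tested liver genes were higher in knockout EBs.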

How the data were processed

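Poly(A)-selected RNA of 8 libraries was measured, 2 for each of 4 groups, and each library was placed in its group by its label. The authors deposited raw counts, whole numbers by gene and library with no normalization per the file headers, together with a gene length in bases. Tools named in the submitters' processing notes are HISAT2, featureCounts and DESeq2, without versions, with the build mm10; the settings for strand, read pairs and multi-mapped reads were not given in the sources used here. Of 55401 gene IDs, 55141 had a symbol in GENCODE M21 and 23376 had 0 counts throughout.

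Genes passing edgeR's filterByExpr (17125) were scaled with TMM factors and fitted by edgeR's quasi-likelihood test on all 8 libraries with 1 mean per group (biological coefficient of variation 0.132). The Benjamini-Hochberg adjustment ran over all genes tested, with calls at an adjusted p below 0.05. The SE is the size of the log2 change divided by the square root of F. CPM used TMM-adjusted library sizes, and RPKM also used the deposited length. The SE thus includes the spread between libraries as estimated in the fit, and a floor covers only the counting error of the group without counts. The procedure was tested on simulated data. Software was edgeR 4.0.16, DESeq2 1.42.0 and limma 3.58.1 under R 4.3.3.

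The genes and all lists were chosen with earlier results of these data known. By the rule for named genes, any listed gene could be named. Full statistics went to Zfp462, Rest, the 8 called genes with the smallest adjusted p per comparison and the gene of highest mean CPM in each role, and up to 4 genes with the smallest adjusted p were named per other list and comparison. Statistics of further called genes, and the gene Rcor1, were added after their values were seen. A further result is not reported here. Alternatives were DESeq2, its median-of-ratios factors, plain library totals, filters of 1 CPM on the mean or none, a block on the replicate number, a fit of only the groups compared, a change of at least 2-fold, removal of each library's GC trend (spline with 5 degrees of freedom) and each library left out, where a lone library is assumed to vary like the other groups. Leaving out both libraries that stood apart, and a crossed block, were chosen after seeing the data.

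Same-numbered replicates did not deviate together (correlations from -0.202 to 0.047 across 9680 genes), so the numbers were not taken as pairs. Promoter windows came from RefSeq (GRCm38.p6).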

Additional observations from a re-analysis of the deposited data

Results flagged for a closer look

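For 4 genes the knockout effect in EBs differed from that in ESCs by a test of the difference itself, fitted over all genes by edgeR. For Stmn2 the difference (EBs minus ESCs, log2) was 0.70 ± 0.15 (adjusted p = 0.0456): the knockout effect was -0.26 in ESCs and 0.45 in EBs. For Ina it was 0.97 ± 0.18 (adjusted p = 0.0324), with effects of -1.83 and -0.86. For Nefl it was -1.45 ± 0.24 (adjusted p = 0.0196), with effects of 0.20 and -1.25. Tubb2b, a beta-tubulin gene of the separate neuronal list, had a difference of 0.64 ± 0.12 (adjusted p = 0.0296). The calls of Stmn2, Ina and Nefl were each lost without any 1 of the control libraries or either knockout EB library (adjusted p up to 0.339, 0.253 and 0.195), and held without either knockout ESC library. That of Stmn2 was also lost with median-of-ratios factors, with a mean of at least 1 CPM, with the replicate block and with the crossed block, and that of Ina with the crossed block. Exons of Ina and Nefl overlap exons of the opposite strand, and the part of that in these values was not tested.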

How the results depend on the processing

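No called change of the listed genes turned its direction under any alternative run. With 2 libraries per group, the number of calls moved most with single libraries. In the order higher, then lower, the counts of listed genes called over the 8 leave-one-out fits were 0 to 2 and 5 to 20 for the knockout in ESCs, 0 to 2 and 4 to 17 in EBs, 1 to 11 and 3 to 13 for control differentiation, 2 to 13 (higher) for knockout differentiation and 0 to 8 and 0 to 3 for the difference between stages. Over all genes the same ranges were 485 to 1948 and 271 to 2781, 196 to 1721 and 40 to 1466, 351 to 2779 and 479 to 2733, 503 to 3228 and 340 to 2257, and 0 to 1463 and 0 to 577.

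Listed genes called moved as follows. In knockout ESCs 2 were higher with the GC trend removed and 2 without both libraries that stood apart, and 8 were lower in a fit of only the groups compared. In knockout EBs 1 was higher with the replicate block, the crossed block or DESeq2, and 0 at a change of at least 2-fold. In control differentiation 11 rose with no low-count filter, with only the groups compared or without both libraries, while 4 rose and 6 fell by at least 2-fold. In knockout differentiation 2 rose in a fit of only the groups compared. Of the differences between stages, 1 was positive with median-of-ratios factors, a mean of at least 1 CPM or the replicate block, 4 with no filter, and 0 with the crossed block or at 2-fold. Negative were 3 with no filter, and 2 with the GC trend removed, without both libraries or with DESeq2. The replicate block gave 15 lower listed genes in ESCs and 12 in EBs, and the numbers do not pair the libraries. With that block Mapt (adjusted p = 0.0615) and Celf4 did not pass in EBs, nor Tubb3 in control and Ncam1 in knockout differentiation. In a fit of only the groups compared Kif5c, Syt11, Rims3, Nrxn2 and Jph4 did not pass in ESCs, nor Dpysl5, Rims3 and Ncam1 in knockout differentiation.

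Over all genes, the counts for the knockout in ESCs were 786 higher and 297 lower at 2-fold, and lower 2067 with the GC trend removed, 407 with only the groups compared and 1658 without both libraries. In EBs they were 1442 and 652 with no filter, 1435 and 1059 with the GC trend removed, 1449 and 1271 with only the groups compared, 452 and 102 at 2-fold, and 858 lower without both libraries. In control differentiation 2932 rose and 2639 fell with only the groups compared, 2831 and 2726 without both libraries, 585 and 719 at 2-fold, and 2264 rose with the GC trend removed. In knockout differentiation 389 and 429 did so with only the groups compared, 540 and 450 at 2-fold, and 2171 rose with no filter and 2236 with the GC trend removed. For the difference between stages the counts were 448 and 256 with no filter, 429 and 278 with the GC trend removed, 414 and 355 without both libraries, 215 and 178 with DESeq2 and 69 and 72 at 2-fold.

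Changes that did not pass the test turned sign in a few genes (log2). For Vamp2 the knockout effect in ESCs was 0.136 without both libraries. With single libraries left out it ran from -0.549 to 0.113 in ESCs and -0.374 to 0.082 in EBs, and its differentiation change from -0.419 to 0.037 in control and -0.449 to 0.220 in knockout cells. Its difference between stages was -0.008 with median-of-ratios factors or DESeq2, -0.000 with no filter, -0.026 at a mean of 1 CPM, -0.003 with the GC trend removed, -0.335 without both libraries and -0.280 to 0.388 over single libraries. In knockout differentiation Cacna1a gave -0.106 with the GC trend removed, -0.419 without both libraries and -0.346 to 0.694 over single ones, and Chga -0.604 to 0.706. Nlgn2 gave -0.011 with library totals, -0.198 with the GC trend removed, -0.293 without both libraries and -0.334 to 0.577 over single ones. Over single libraries the knockout effect of Nlgn2 in ESCs ran from -0.248 to 0.656 and its difference between stages from -0.821 to 0.090. In knockout differentiation Rest gave 0.083 with the GC trend removed and -0.058 to 0.011 over single libraries, and Zfp462 gave 0.027 with the GC trend removed. The cause was not tested. Genes under about 2 CPM are limited by depth.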
